A study of Mus musculus with 15 samples.

Results

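Transcripts of 10 protein-coding genes of the mouse mitochondrial genome were followed through spermatogenesis and through treatment with JQ1, a small-molecule inhibitor of BET bromodomain proteins. The genes were mt-Nd1, mt-Nd2, mt-Nd4, mt-Nd4l, mt-Cytb, mt-Co1, mt-Co2, mt-Co3, mt-Atp6 and mt-Atp8, which are 10 of the 13 mitochondrial protein-coding genes and 10 of the 32285 genes in the count tables. They were selected by symbol, with their measured share of unique molecular identifiers (UMIs) by cell stage, depth and group already known, so their levels are given as descriptions without a test. The other 3 protein-coding genes of the mitochondrial genome held 1.32% to 1.92% of all mitochondrial UMIs per library and were not followed further.

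Single-cell RNA-seq was performed on testes of DBA/2J mice, with 1 testis of 1 mouse in each of 15 libraries and 3 libraries in each of 5 groups. Treated mice (T) received JQ1 at 50 mg/kg by intraperitoneal injection each day for 3 wk and were 10 wk old at collection, and their vehicle controls (VC-T) were of the same age. Recovered mice (R) received the same course of JQ1 and were collected 6 wk after the last dose, at 16 wk of age, beside vehicle controls of that age (VC-R). Untreated controls (UC) were 15 wk old, so in comparisons with UC the effect of JQ1 cannot be told apart from those of age (T) and of injections of the vehicle, DMSO in a cyclodextrin solution (T and R). The labels name no transgene or engineered allele for any group.

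After removal of low-quality barcodes and doublets, 72362 cells remained, which held 370793985 UMIs, and 3268541 of these came from the 10 genes. Libraries held from 9673587 UMIs (T 3) to 98724982 UMIs (R 3), and the median depth of kept cells lay between 2456.5 and 4204 UMIs. Of 71700 distinct barcodes of kept cells, 661 occurred in more than 1 library. Cells were named "-like" after marker genes fixed without the mitochondrial genes: cells named after spermatozoa numbered 23965, after spermatids 21090, after spermatocytes 14114 and after spermatogonia 3163, with 4124 Sertoli-like, 318 Leydig-like, 286 macrophage-like and 85 myoid-like cells among the somatic cells. A further 5217 cells stayed unnamed. The 10 genes held 0.530% to 0.673% of all UMIs of kept cells in UC, 0.549% to 0.749% in VC-R, 0.820% to 1.007% in R, 0.859% to 1.06% in VC-T and 1.06% to 1.27% in T, with cells of different stages in different proportions. Spermatozoa-like cells made up 53.2% to 62.3% of kept cells in UC and 0.0181% to 0.123% in T. The library labelled VC-T 1 held none, unlike VC-T 2 (27.3%) and VC-T 3 (45.4%), and so went against its vehicle label. It was left out of the fits with a vehicle control, as the study left it out of its own differential expression. VC-T 1 was kept in shares, ratios and overlap comparisons for classes in which it held at least 10 cells.

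The mitochondrial genome encodes a few core subunits of the respiratory chain, while nuclear genes encode the remaining subunits and all the protein factors that copy, transcribe and translate it. Both strands are transcribed as long precursors that are cut, mostly at the tRNAs between genes, into messenger RNAs which are then polyadenylated. In the male germ line, spermatogonia and spermatocytes carry many mitochondria, and during spermiogenesis most cytoplasm is shed while the remaining mitochondria are packed into a sheath around the sperm midpiece.

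All 10 genes lie on the same strand of the mitochondrial chromosome (GRCm38), from mt-Nd1 at chrM:2751-3707 to mt-Cytb at chrM:14145-15288, and are 204 to 1545 bases long. Both pairs that share a messenger RNA overlap: the last 43 bases of mt-Atp8 are the first 43 of mt-Atp6 (chrM:7927-7969), and the last 7 bases of mt-Nd4l are the first 7 of mt-Nd4 (chrM:10167-10173). The ends of these genes are shown because a read inside an overlap belongs to both annotated genes, which bears on the ratios given below. Capitals mark the shared bases:
mt-Atp8, last 60 bases: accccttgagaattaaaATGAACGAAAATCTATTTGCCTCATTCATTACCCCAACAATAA
mt-Atp6, first 60 bases: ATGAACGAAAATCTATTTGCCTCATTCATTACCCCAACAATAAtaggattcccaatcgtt
mt-Nd4l, last 60 bases: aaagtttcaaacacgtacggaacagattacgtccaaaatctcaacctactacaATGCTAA
mt-Nd4, first 60 bases: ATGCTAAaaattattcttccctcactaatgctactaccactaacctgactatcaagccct

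Of the 10 genes, 7 end in a complete stop codon, while mt-Co3, mt-Cytb and mt-Nd4 end on a single base of a stop codon that polyadenylation completes. The libraries were made from 3′ ends primed at poly(A), so these last bases lie next to the priming site. Capitals mark the single base of the incomplete codon:
mt-Co3, last 60 bases: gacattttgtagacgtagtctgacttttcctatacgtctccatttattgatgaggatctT
mt-Cytb, last 60 bases: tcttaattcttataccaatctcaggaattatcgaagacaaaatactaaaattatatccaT
mt-Nd4, last 60 bases: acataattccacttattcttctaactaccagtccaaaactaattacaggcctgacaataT

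Summed over the cells of a class, the share of the 10 transcripts was highest in somatic and spermatogonia-like cells and lower in each later germ cell class. Single clusters did not all keep this order, as given below. Over all libraries with at least 10 cells of a class, the median share of UMIs was 3.23% in spermatogonia-like cells (range 2.85% to 4.13%, n = 15), 1.26% in spermatocyte-like cells (1.06% to 1.502%, n = 15), 0.310% in spermatid-like cells (0.131% to 0.960%, n = 15) and 0.0802% in spermatozoa-like cells (0.0491% to 0.113%, n = 11). The ranges of neighbouring germ cell stages did not overlap. Among somatic classes the median was 5.44% in Sertoli-like cells (3.21% to 9.52%, n = 13), 4.03% in Leydig-like cells (0.816% to 5.74%, n = 10), 3.09% in macrophage-like cells (2.69% to 3.38%, n = 6) and 2.53% in myoid-like cells (2.45% to 4.66%, n = 5), ranges that overlapped with each other. In UC the share was 1.06%, 1.25% and 1.15% in spermatocyte-like cells and 0.0557%, 0.0601% and 0.0977% in spermatozoa-like cells, a difference of 1.08 percentage points.

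**Figure D1:**
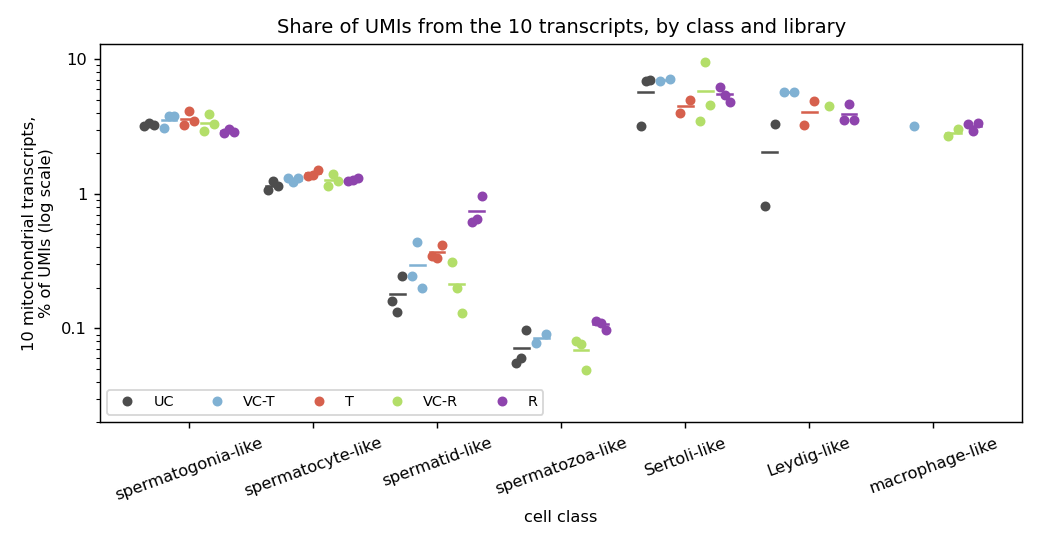
Share of UMIs from the 10 mitochondrial transcripts (percent, log scale) in each cell class, 1 point per library with at least 10 cells of the class and a line at the mean of each group (UC, VC-T, T, VC-R, R). The share of each class as a whole is lower at each later germ cell stage, from a median of 3.23% in spermatogonia-like to 0.0802% in spermatozoa-like cells. In spermatid-like cells R lies above every other group.

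Per cell, the order was different. The mean number of UMIs from the 10 genes per cell had a median over libraries of 83.4 in spermatogonia-like and 107 in spermatocyte-like cells, with overlapping ranges. It was 13.9 in spermatid-like and 3.13 in spermatozoa-like cells. The median cell held fewer, 64, 95, 4 and 1 UMIs in the same order (medians over libraries). Spermatocyte-like cells were therefore not lower than spermatogonia-like cells in mitochondrial UMIs per cell, only in share. Their mean total per cell was 8442 UMIs against 2449 (medians over libraries). No UMI of any of the 10 genes was found in 0.207% of spermatocyte-like cells (median over libraries), in 14.4% of spermatid-like cells (7.30% to 34.3%) and in 40.2% of spermatozoa-like cells (13.5% to 60.6%). The spermatid transcript Tnp1, not known as a Sertoli cell gene, stood at 1571 to 9854 CPM (UMIs of the gene per 1000000 UMIs) in Sertoli-like cells, at 92.4 to 2511 CPM in spermatogonia-like cells and at 24199 to 42285 CPM in spermatozoa-like cells. Free RNA, doublets and engulfed germ cells were not told apart as its source. The part of free mitochondrial RNA in the small number of UMIs per spermatozoa-like cell was not tested.

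Clusters within a stage differed widely in share. The 8 spermatid-like clusters ran from 0.0477% (c22, median 8785 UMIs per cell) through 0.0738% (c1), 0.347% (c10 and c13) and 0.505% (c3) to 1.13% (c14), 1.63% (c17) and 4.29% (c18, median 1573 UMIs per cell). These shares pool all groups. R supplied 1357 of the 2054 cells of c17, whose share was 2.10% in R and between 0.271% (UC) and 0.873% (VC-R) in the other groups, below c14 in each of those. Medians under 2000 UMIs per cell were found in 4 of them, c10, c14, c17 and c18. Among the 8, c1 held a spermatid marker (Tex36) in its 10 leading genes and the other 7 held none, so their names rest on the marker score. Ppfia2, Fgf14 and Atrnl1 were among the leading genes of c18, and Agbl1, Pcdh9 and Cntn5 among those of c14. The named genes of c18 were also among those of c20, an unnamed cluster that had Cenpe and Ccnb1 there too. The best class of c20 was spermatocyte, with a marker score of -0.017, and c18 scored 0.691 as spermatid. The 7 spermatocyte-like clusters lay closer together, between 0.933% (c25) and 2.01% (c19), while c8, with the dividing-cell kinase gene Aurka in front, held 0.984%. Both c25 and c19 were named leptotene-zygotene by marker score. Only Tex101 of that marker list was among their 10 leading genes. The spermatogonia-like clusters held 3.13% (c23, with Stra8, a gene of entry into meiosis) and 3.49% (c15, with Dmrt1). Meiob and Rad51ap2, also on the leptotene-zygotene list, were among the leading genes of c23. In UC the 7 spermatocyte markers summed to 3233 to 4168 CPM in spermatogonia-like and 2209 to 2690 CPM in spermatocyte-like cells. The name spermatogonia-like therefore does not stand for spermatogonia alone. Of 7 spermatozoa-like clusters, 5 held between 0.0513% and 0.119%, while c27 held 0.455% and c21 1.02%. The spermatid-like cluster c22 thus lay below every spermatozoa-like cluster, and c21 lay above the spermatid-like c3. Of the 5 spermatozoa markers used for naming, Smcp and Tssk6 were among the 10 leading genes of c21 and none among those of the other 6, while the protamine genes Prm1 and Prm2, not among those markers, were leading genes of c0 and c27.

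**Figure D2:**
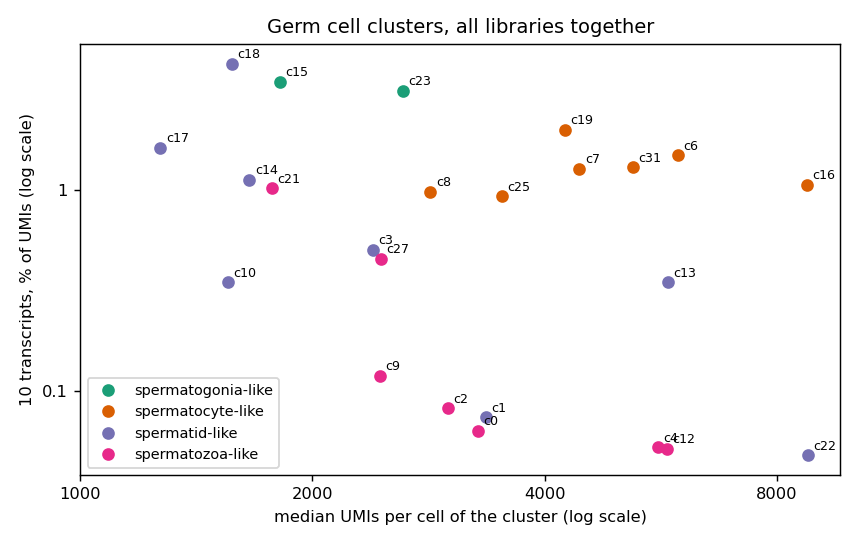
Share of UMIs from the 10 transcripts (percent, log scale) against the median UMIs per cell (log scale) of each germ cell cluster, all libraries together, coloured by class. Spermatid-like clusters spread from 0.0477% (c22) to 4.29% (c18), and the 4 with medians under 2000 UMIs per cell (c10, c14, c17, c18) hold between 0.347% and 4.29%.

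Within spermatid-like cells the share was lower in cells with more UMIs. In UC it averaged 0.853% ± 0.211 (SD, n = 3) in cells with 1000 to under 2000 UMIs, 0.294% ± 0.0629 with 2000 to under 4000, 0.149% ± 0.0569 with 4000 to under 8000 and 0.0938% ± 0.0318 with 8000 or more. In R it went from 1.91% ± 0.276 to 0.195% ± 0.0432 over the same steps, whereas in T it went only from 0.620% ± 0.0143 to 0.297% ± 0.0301. T was lower than UC on average in the shallowest spermatid-like cells, where the libraries overlapped (0.605% to 0.632% and 0.621% to 1.03%), and higher in the deepest, where its 3 libraries (0.270% to 0.330%) did not overlap with UC (0.0670% to 0.129%). In spermatocyte-like cells the mean went from 2.72% to 1.09% in UC and from 1.93% to 1.22% in T, but R held 1.17% in the shallowest and 1.26% in the deepest cells. In spermatogonia-like cells of UC the 2 shallowest bins held 3.39% and 3.38%.

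**Figure D3:**
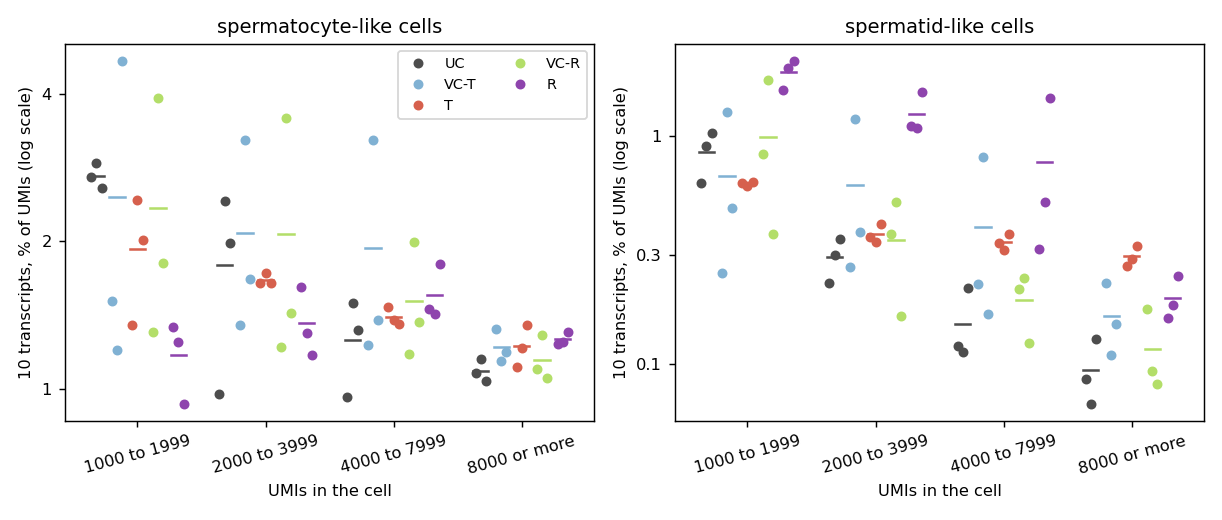
Share of UMIs from the 10 transcripts (percent, log scale) by the number of UMIs in the cell, for spermatocyte-like (left) and spermatid-like cells (right), 1 point per library with at least 10 cells in the bin and a line at the group mean. In spermatid-like cells R goes from a mean of 1.91% to 0.195% and T from 0.620% to 0.297%.

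The make-up of the mitochondrial UMIs also differed by stage. Since counts from 3′ ends depend on each gene's own end, the parts are compared between classes for each gene and not between genes. Among the complex I genes, which encode subunits of NADH dehydrogenase, mt-Nd1 made up 5.62% of the UMIs of the 10 genes in spermatogonia-like cells, 4.65% in spermatocyte-like cells, 3.39% in spermatid-like cells and 5.45% in spermatozoa-like cells (medians over libraries). The lowest spermatozoa-like library (4.46%) lay above the highest spermatid-like library (3.90%). mt-Nd2 had the same low point, 2.45% in spermatid-like cells against 3.68% and 4.10% in the stages before and after, and its spermatid-like range (2.02% to 3.31%) lay below the spermatozoa-like range (3.49% to 4.90%). mt-Nd4 was different, with 5.20%, 5.54%, 5.47% and 4.35% from spermatogonia-like to spermatozoa-like cells.

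mt-Cytb, the complex III subunit that carries the haem groups of cytochrome b, made up 9.06% in spermatogonia-like and 9.09% in spermatocyte-like cells but 6.29% in spermatid-like and 7.06% in spermatozoa-like cells. Among the genes of cytochrome c oxidase (complex IV), mt-Co1, its catalytic subunit, went from 16.1% in spermatocyte-like cells (14.7% to 17.7%) to 21.9% in spermatid-like cells (18.4% to 23.2%), ranges that did not overlap. mt-Co2, the subunit that receives electrons from cytochrome c, made up 17.4% in spermatogonia-like cells (15.5% to 18.3%) and 21.1% to 21.7% in the later stages (lowest library 18.6%). mt-Co3, a further core subunit, had medians between 20.01% and 21.4% in the 4 germ cell stages. Of the ATP synthase genes, mt-Atp6, which forms part of the proton channel, ranged from 17.6% to 19.9%, and mt-Atp8, a small subunit beside it, from 0.203% to 0.374%. In Sertoli-like cells mt-Nd4 made up 3.43% (2.92% to 4.03%), below every spermatid-like library (4.85% to 7.44%).

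**Figure D4:**
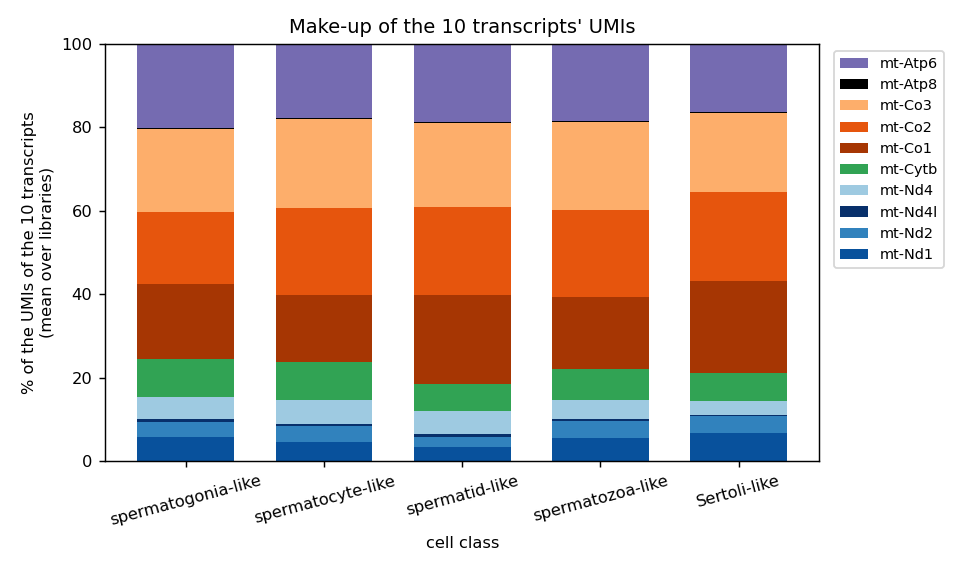
Make-up of the UMIs of the 10 transcripts in each cell class, as stacked percentages that are means over libraries and sum to 100. mt-Co1 takes a larger part in spermatid-like than in spermatocyte-like cells, while mt-Nd1, mt-Nd2 and mt-Cytb take a smaller one.

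The first group comparison was T with UC, at the end of JQ1 treatment. In spermatogonia-like cells the summed share was 3.23%, 4.13% and 3.50% in T and 3.18%, 3.38% and 3.22% in UC, values that overlapped. Single genes did separate there: mt-Nd4l stood at 331, 383 and 331 CPM in T and 118, 149 and 161 CPM in UC, mt-Atp8, mt-Atp6 and mt-Co1 were also higher in each T library, and mt-Cytb was lower (2418 to 3089 CPM against 3183 to 3432 CPM). Of all 16746 genes at 1 CPM or more in at least 3 of these libraries, 13.3% were higher and 9.03% lower without overlap. Against VC-T, the vehicle group of the same age with VC-T 1 kept, 9 of the 10 genes overlapped and 1 was higher. No share of all genes is given for this comparison, so nothing is read from the count. The class held different clusters, with c15 at 95.2% ± 0.864 of its cells in T and 57.2% ± 8.78 in UC, and the spermatocyte markers in it summed to 1320 to 1691 CPM in T and 3233 to 4168 CPM in UC. Their part in these differences was not tested. In spermatocyte-like cells the summed share was 1.36%, 1.39% and 1.502% in T and 1.06%, 1.25% and 1.15% in UC, a difference of 0.264 percentage points with no overlap, while VC-T, at 1.31%, 1.22% and 1.30%, lay below T and overlapped with UC. The classes held different clusters: c25, with the lowest share, made up 18.3% ± 17.8 of them in UC and 0.849% ± 0.856 in T, and Tnp1 stood at 3747 CPM in UC 1 but 502 and 652 CPM in UC 2 and UC 3. With equal weight to the shared clusters the difference was 0.174. The difference was not uniform over depth: with equal weight to the 4 depth bins it was -0.159, and within clusters T lay above UC without overlap in 2 of 5 clusters (c6, 1.66% ± 0.0357 against 1.34% ± 0.0344, and c8) and overlapped with it in 3. In spermatid-like cells the share was 0.347%, 0.333% and 0.420% in T and 0.1603%, 0.133% and 0.246% in UC, so all T libraries lay above UC, but VC-T, at 0.247%, 0.439% and 0.200%, overlapped with T. Within clusters T lay above UC without overlap in 3 of 5 clusters (c1, c3 and c13) and above VC-T in 3 of 5 (c1, c10 and c13), for example in c13 at 0.414% ± 0.0180 against 0.2495% ± 0.0496 in UC and 0.292% ± 0.0343 in VC-T. The highest VC-T library, VC-T 2, had 76.5% of its spermatid-like cells in the 4 low-UMI clusters, against 2.82% in VC-T 1 and 10.0% in VC-T 3.

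By gene, the difference in spermatocyte-like cells was uneven. mt-Nd4l, a small membrane subunit of complex I, stood at 125, 111 and 110 CPM in T, at 33.3, 34.9 and 39.2 CPM in UC and at 86.4, 58.0 and 57.6 CPM in VC-T. T lay above both control groups. On the log2 scale of the edgeR fit, mt-Nd4l was 1.53 ± 0.0912 (SE) higher in T than in UC and mt-Atp8 1.61 ± 0.229 higher, mt-Nd2 was 0.50, mt-Atp6 0.40, mt-Nd1 0.38, mt-Nd4 0.32 and mt-Co1 0.19 higher, while mt-Cytb (0.04), mt-Co3 (-0.07) and mt-Co2 (-0.08) lay within about 1 SE of 0. Against VC-T 2 and VC-T 3, mt-Atp8 was 1.06 and mt-Nd4l 0.81 higher, and mt-Co1 had the opposite sign (-0.18). Of the 10 genes, 4 passed an adjusted p of 0.05 in edgeR's quasi-likelihood test as higher, where 0.656% of all 12034 genes tested did, from which nothing is read because the genes were selected on these values. As parts of the mitochondrial UMIs, mt-Atp6 held 19.0% to 20.1% in T against 15.9% to 16.7% in UC, and mt-Co2 18.6% to 19.6% against 21.7% to 22.6%. Both differences had no overlap between the groups.

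In spermatid-like cells every one of the 10 genes was higher in T than in UC in all libraries, from 0.58 for mt-Cytb to 2.02 for mt-Nd4l and 2.45 for mt-Atp8 on the log2 scale (median 0.85), beside 19.9% of 12624 genes called higher and 38.4% of 15253 genes higher without overlap. UC held few UMIs of these genes there, 11, 18 and 37 of mt-Nd4l and 6, 4 and 12 of mt-Atp8. mt-Co1, for example, stood at 760, 773 and 946 CPM in T and at 329, 268 and 497 CPM in UC, and mt-Cytb at 218, 213 and 263 CPM against 120, 103 and 178 CPM. Against VC-T 2 and VC-T 3 the median was 0.06 and mt-Nd1 (-0.30), mt-Co3 (-0.17), mt-Co2 (-0.12) and mt-Cytb (-0.01) had the opposite sign, and T lay above VC-T without overlap for mt-Nd4 and mt-Nd4l (29.999, 25.4 and 28.9 CPM against 16.3, 21.2 and 8.99 CPM for the latter), beside 20.3% of 15033 genes. The spermatid-like cells of T also differed in other transcripts. Tnp1, a transition protein gene of late spermatids, was at 480 to 913 CPM in T and 3876 to 4341 CPM in UC. The summed spermatocyte markers stood at 757 to 789 CPM against 417 to 463 CPM. The study reports Tnp1 as bound by BRDT, a BET protein of the testis, and lower in treated testes. A difference in stage and an effect of JQ1 on Tnp1 itself were not told apart. Cluster c3 held 39.6% ± 5.79 of the spermatid-like cells in T and 16.3% ± 3.87 in UC, and c22 0.613% ± 0.457 against 17.1% ± 3.41. With equal numbers of cells from each shared cluster, 9 genes could be fitted and lay 0.26 to 1.71 higher in T than in UC (median 0.55). T held too few spermatozoa-like cells for a value.

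At 6 wk after the last dose, the share in spermatid-like cells was larger than in any other group. It was 0.619%, 0.645% and 0.960% in R, against 0.1603%, 0.133% and 0.246% in UC and 0.310%, 0.200% and 0.131% in VC-R, a difference from UC of 0.562 percentage points. All 10 genes were higher in R than in UC in every library, from 1.52 ± 0.138 (SE) for mt-Cytb to 2.56 ± 0.181 for mt-Nd4l and 3.33 ± 0.267 for mt-Atp8 on the log2 scale (median 1.89), beside 23.5% of 14343 genes called higher and 40.6% of 16066 genes higher without overlap. The values of mt-Nd4l and mt-Atp8 rest on small counts in UC, 11, 18 and 37 UMIs and 6, 4 and 12 UMIs. Against VC-R the same median was 1.67. mt-Atp8 stood at 19.0, 20.2 and 30.2 CPM in R, at 2.29, 1.22 and 2.49 CPM in UC and at 7.27, 5.97 and 2.68 CPM in VC-R, and R lay above both. mt-Co1 stood at 1250, 1316 and 1764 CPM in R, and mt-Nd2, with the next highest log2 difference from UC (2.10), at 185, 186 and 318 CPM against 40.4, 36.3 and 59.6 CPM in UC.

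Cells of the 4 low-UMI clusters were more frequent in R than in UC and VC-R. VC-T 2, a library labelled vehicle, lay inside the range of R, with 76.5% of its spermatid-like cells in these clusters. They held 81.7% of the mitochondrial UMIs of its spermatid-like cells. Cells of these clusters made up 77.4%, 70.8% and 87.9% of the spermatid-like cells of R and 18.7%, 11.6% and 21.6% of those of UC (26.6%, 16.6% and 2.71% in VC-R). In R they held between 77.0% and 87.1% of the mitochondrial UMIs of spermatid-like cells. Cluster c18, which shares leading genes with the unnamed c20, held 127087 of these UMIs in R, c17 45891, c14 38888 and c10 15760. Without these clusters the difference was 0.0747 percentage points, and with equal weight to all shared clusters it was 0.173. Within single clusters R lay above UC without overlap in 5 of 8 clusters and overlapped with it in 3. The 5 were c3 at 0.547% ± 0.0286 against 0.402% ± 0.0230, c13 at 0.346% ± 0.0310 against 0.2495% ± 0.0496, c22 at 0.0787% ± 0.0118 against 0.0342% ± 0.0132, and of the low-UMI clusters c17 at 2.03% ± 0.678 against 0.351% ± 0.204 (n = 2 in UC) and c18 at 4.41% ± 0.0537 against 3.76% ± 0.421. The other low-UMI clusters overlapped, c14 with 1.09% ± 0.140 in R and 1.10% ± 0.243 in UC, and c10. Against VC-R, 2 of 7 clusters (c18 and c22) lay higher without overlap. With equal numbers of cells per cluster, the 10 genes lay 0.23 to 2.43 higher in R than in UC (median 0.48).

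Other transcripts moved beside them. The 8 Sertoli cell markers summed to 93.3 to 109 CPM in the spermatid-like cells of R against 32.1 to 57.6 CPM in UC, 21.8 to 55.9 CPM in VC-R and 4.92 to 17.1 CPM in T, with all 8 detected in R. The 7 spermatogonia markers summed to 19.1 to 20.8 CPM in R and 9.15 to 13.05 CPM in UC, with up to 2 of them at 0 in a library of either group, and the 7 spermatocyte markers to 507 to 598 CPM and 417 to 463 CPM. The 6 spermatid markers themselves summed to 2694 to 2906 CPM in R and 3085 to 3542 CPM in UC. The part of these other cells, and of the low depth, in the mitochondrial share was not tested.

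In the other stages R differed less from UC. In spermatogonia-like cells its share was 2.85%, 3.03% and 2.87%, below all UC libraries (3.18% to 3.38%) but overlapping with VC-R (2.93% to 3.90%). mt-Co2, mt-Co3 and mt-Cytb were lower in each R library than in UC there, while mt-Nd2, mt-Nd4l and mt-Atp8 were higher, beside 8.1% of 17078 genes lower and 14.2% higher without overlap. Against VC-R 6 of the 10 genes overlapped, 2 were higher and 2 lower. No share of all genes is given for R against VC-R here, so nothing is read from these counts. In these cells the spermatogonia markers summed to 771 to 1144 CPM in R and 1387 to 1594 CPM in UC, the spermatocyte markers to 4305 to 5426 CPM and 3233 to 4168 CPM, and the Sertoli markers to 147 to 263 CPM and 69.6 to 125 CPM. Cluster c23 made up 60.8% ± 4.15 of them in R and 42.8% ± 8.78 in UC, and the part of these markers and clusters was not tested. In spermatocyte-like cells it was 1.25%, 1.26% and 1.31%, a mean 0.119 percentage points above UC and 0.0113 above VC-R. The sign of the difference from UC turned with equal weight to depth bins (-0.377) and with the mean of single cells (-0.0724). There 6 of the 10 genes lay above UC without overlap, beside 12.1% of 13914 genes, among them mt-Nd4l (0.80 on the log2 scale) and mt-Atp8 (1.36), the others did not, and no gene of the 10 passed the edgeR test, where 0% of 12954 genes were called higher and 0.00772% lower (962 genes had an unadjusted p under 0.05, and DESeq2 called 238). In spermatozoa-like cells the share was 0.113%, 0.110% and 0.0976% in R and 0.0557%, 0.0601% and 0.0977% in UC, which overlapped, while VC-R, at 0.0802%, 0.0765% and 0.0491%, lay below R. The log2 differences from UC there ran from 0.24 for mt-Cytb and mt-Nd4 to 1.013 for mt-Nd4l and 1.64 for mt-Atp8, and 8 of the 10 genes passed as higher, beside 4.33% of 12573 genes. UC libraries held only 6 to 33 UMIs of mt-Nd4l and 3 to 13 of mt-Atp8 in these cells. With equal cells per cluster 1 of the 10 passed (median log2 difference 0.32) and against VC-R, where edgeR called no gene at all, none did (median 0.61). Nothing is read from the passes of the 10 genes in either stage, because the genes were selected on these values. Cluster c21 made up 11.8% ± 5.43 of these cells in R and 0.501% ± 0.390 in UC. In none of the 6 spermatozoa-like clusters with enough cells did the summed share separate R from UC.

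mt-Nd4l and mt-Atp8, the first genes of the overlapping pairs shown above, separated UC from all treated and vehicle groups. Over all kept cells, mt-Nd4l had 5.60, 6.61 and 7.09 UMIs per 100 UMIs of mt-Nd4 in UC. The ratio was 10.7, 9.81 and 8.96 in VC-R, 11.6 in each library of VC-T, 11.1, 11.3 and 10.4 in R and 14.3, 13.01 and 12.1 in T, so each UC library lay below each of the 12 others. mt-Atp8 had 0.645, 0.557 and 0.705 UMIs per 100 UMIs of mt-Atp6 in UC and 0.885 to 1.77 in the other groups, again with no overlap. The counts behind these values were small in UC, 203 to 456 UMIs of mt-Nd4l and 69 to 146 UMIs of mt-Atp8 per library.

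Within stages UC had the lowest mean ratio of mt-Nd4l to mt-Nd4, while the order of the other groups varied. In spermatocyte-like cells mt-Nd4l per 100 mt-Nd4 was 4.96 to 6.17 in UC, 8.78 to 10.2 in VC-R, 9.07 to 11.5 in VC-T, 9.05 to 9.47 in R and 11.7 to 14.3 in T, and in spermatozoa-like cells it was 4.196 to 9.66 in UC and 10.5 to 22.2 elsewhere. In spermatid-like cells UC (4.66 to 7.41) ended where VC-R began, and in spermatogonia-like and Sertoli-like cells UC overlapped with other groups. For mt-Atp8 per 100 mt-Atp6, UC lay below all others in spermatogonia-like cells (0.750 to 0.960 against 1.05 to 3.14) and spermatid-like cells (0.503 to 0.838 against 0.928 to 2.35) and overlapped with them in spermatocyte-like and spermatozoa-like cells. The UC ratios rest on 4 to 12 UMIs of mt-Atp8 and 11 to 37 of mt-Nd4l per library in spermatid-like cells. In spermatozoa-like cells these counts were 3 to 13 and 6 to 33. For mt-Nd4l, T was highest in spermatogonia-like cells, at 18.2 to 19.8 against 13.8 to 16.3 in VC-T. Against VC-R, the vehicle group of the same age, mt-Atp8 per 100 mt-Atp6 was higher in R without overlap in spermatogonia-like (2.11 to 2.50 against 1.08 to 2.02), spermatocyte-like (1.22 to 1.402 against 0.705 to 1.17) and Sertoli-like cells (1.75 to 2.14 against 0.942 to 1.58), and overlapped in spermatid-like and spermatozoa-like cells. mt-Nd4l per 100 mt-Nd4 was higher in R than in VC-R without overlap in spermatid-like cells (9.96 to 11.9 against 7.41 to 9.91) and overlapped in the other 4 classes.

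**Figure D5:**
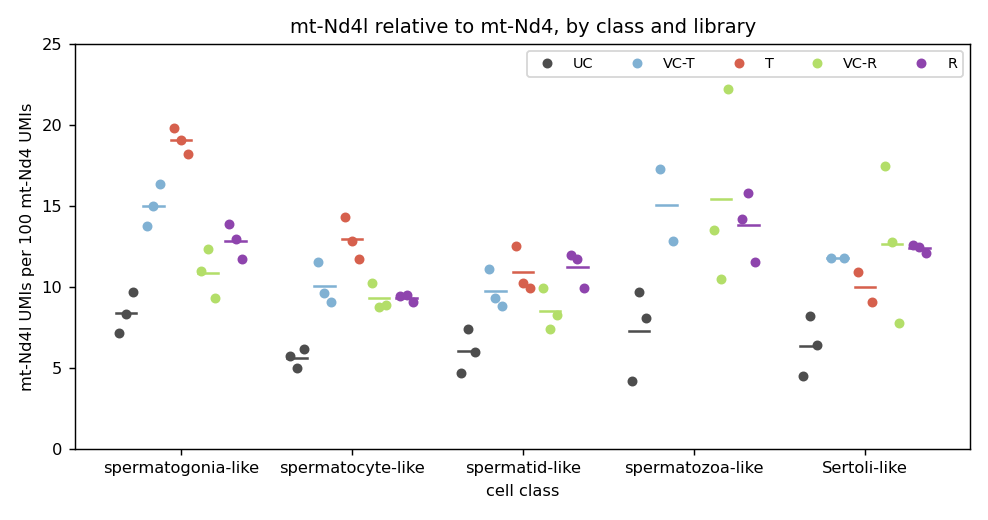
mt-Nd4l UMIs per 100 mt-Nd4 UMIs in 5 cell classes, 1 point per library and a line at the group mean, on a linear axis from 0. UC lies lowest in each class on average, and its libraries do not overlap with other groups in spermatocyte-like and spermatozoa-like cells.

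Nuclear genes of mitochondrial function were tested as fixed lists in the same edgeR fits, and their counts are set beside the share of all genes called. Their levels by stage went in the same direction as the mitochondrial transcripts, with exceptions. The median level of the 87 nuclear subunits of oxidative phosphorylation was 267 CPM in spermatogonia-like, 214 in spermatocyte-like, 157 in spermatid-like and 43.0 in spermatozoa-like cells, and 84 of the 87 were higher in the first than in the last. Of the 79 genes taken by name as mitochondrial ribosome genes, 75 were higher in spermatogonia-like than in spermatozoa-like cells (86.5 and 10.4 CPM). The 11 genes of the sperm mitochondrial sheath, such as Smcp, a structural protein of its capsule that is also one of the spermatozoa markers, went the other way, with 4 of 11 higher in spermatogonia-like cells. Tfam, which packages mitochondrial DNA and starts its transcription, was the exception among the transcription and maintenance genes, 16 of 17 of which were higher in spermatogonia-like cells: it stood at 1033 to 1400 CPM in spermatozoa-like cells, where the 10 mitochondrial transcripts were lowest. The counts are per gene, so forms of the Tfam transcript were not told apart. Its level here and below is not read as a level of the mitochondrial protein.

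In spermatid-like cells of R, where the 10 mitochondrial transcripts were higher than in UC, most called nuclear genes of mitochondrial function fell. Of 82 nuclear oxidative phosphorylation genes tested, 61 fell and 4 rose compared with UC (21.2% of all genes fell and 23.5% rose), with a median log2 fold change of -0.31 against 0.04 for all genes. Cox6b2, the testis form of a cytochrome c oxidase subunit, fell by 0.50 ± 0.0772 (adjusted p = 3.95e-06, edgeR) and Ndufa6, a complex I subunit, by 0.54 ± 0.0845, while Atp5k, an ATP synthase subunit, rose by 0.54 ± 0.111 (adjusted p = 0.000172) and Sdhd, a complex II subunit, by 1.09 ± 0.280. Of 78 ribosome genes 36 fell, led by Mrpl30 and Mrpl20, and 1 rose (Mrps7), with a median of -0.27. Of 11 sheath genes 10 fell and none rose, Gykl1 and Tbc1d21 each by 0.52 (median of the list -0.41). With equal numbers of cells from each cluster these calls were mostly lost: 379 genes in all were called in place of 6422, and of the lists 1 oxidative phosphorylation gene, 1 ribosome gene and no sheath gene fell (list medians -0.02, -0.01 and -0.02), with Gykl1 at -0.07 and Tbc1d21 at -0.05. Of these named genes Atp5k and Mrpl20 kept their call there and the others lost it.

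The smaller lists gave few calls in R. Of 15 dynamics genes 4 fell, among them the fission genes Dnm1l and Mff. Of 17 RNA processing genes 2 fell (Fastk and Fastkd2) and 2 rose (Pnpt1 and Nsun4), of 10 transcription and maintenance genes 1 rose (Top1mt), and of 9 translation factors 1 fell (Mrrf). Nsun4 and Top1mt were not called with DESeq2, with equal cells per cluster or against VC-R, and with equal cells Dnm1l, Mff, Fastk, Fastkd2 and Mrrf were not called either. Against VC-R the calls of Pnpt1, Fastkd2, Dnm1l and Mrrf were lost. Atp5k rose by 0.66 with equal cells per cluster but differed by 0.11 from VC-R (adjusted p = 0.463, edgeR), at 57.9, 39.7 and 65.9 CPM in UC, 85.7, 77.7 and 60.4 CPM in VC-R and 89.8, 88.9 and 98.1 CPM in R.

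In spermatid-like cells of T the lists were mixed. Of 82 oxidative phosphorylation genes 22 rose and 8 fell (19.9% of all genes rose and 24.8% fell), and of 76 ribosome genes 19 rose and 8 fell. Cox6c (0.62) and Ndufb9 (0.55) rose, while Ndufa13 fell by 1.28 ± 0.0942 and Mrps36, in the ribosome list only by its name, by 1.90 ± 0.200. Tfam showed the lowest values, 22.2, 8.75 and 8.56 CPM in T against 175, 202 and 179 CPM in UC, a fall of 3.84 ± 0.219 on the log2 scale (adjusted p = 6.29e-09, edgeR), and fell by 1.94 with equal cells per cluster and by 4.35 against VC-T 2 and VC-T 3. The library labelled VC-T 1 held 11.6 CPM, like T. Of 10 transcription and maintenance genes 3 rose, among them the single-strand binding protein Ssbp1 by 1.16 and Rnaseh1 by 1.24, and 2 fell, Tfam and the mitochondrial topoisomerase Top1mt (by 2.17). Ssbp1 and Rnaseh1 were not called with DESeq2 (adjusted p = 0.0504 and 0.0713) or against VC-T 2 and VC-T 3 (edgeR, adjusted p = 0.0757 and 0.309), and Cox6c was not called against VC-T 2 and VC-T 3.

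Of 17 RNA processing genes in T 5 rose and none fell, including Trmt10c, a part of the tRNA-end nuclease, by 1.12, and Slirp, which stabilises mitochondrial messenger RNA, by 0.32 (-0.03 against VC-T 2 and VC-T 3). With equal cells per cluster 1 gene of this list rose and 1 fell, and Trmt10c (0.25, edgeR adjusted p = 0.622) and Slirp were not called. Of 11 sheath genes 6 fell and 2 rose, with Spata18 down by 1.71 ± 0.0967 and Smcp by 0.84 ± 0.0794. Vdac2 and Vdac3, channels of the outer membrane, rose by 0.27 and 0.22 (0.04 and -0.02 with equal cells per cluster, not called). Of 15 dynamics genes 4 rose, among them Pld6 and Mff (neither called with equal cells), and none of 8 translation factors was called. With equal cells per cluster, 7 of 80 oxidative phosphorylation genes rose and 10 fell, so the balance of that list turned.

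In spermatocyte-like cells of T no list gene rose, and 5 of 81 oxidative phosphorylation genes and 3 of 79 ribosome genes fell (0.656% of all genes rose and 1.48% fell), including Ndufb7 by 0.46, Cox6b2 by 0.56, Mrpl55 by 0.48 and Mrpl11 by 0.40. These 4 also fell with DESeq2, with equal cells per cluster and against VC-T 2 and VC-T 3. The count of list genes called, 8, was 0 without any of T 1, T 2, T 3, UC 2 or UC 3 and 28 without UC 1, whose spermatocyte-like cells held 143 CPM of Tfam against 13.9 and 28.4 CPM in UC 2 and UC 3. In R no list gene was called in spermatocyte-like cells by edgeR, where 52 had an unadjusted p under 0.05 and DESeq2 called 28. In spermatozoa-like cells of R, 11 of 82 oxidative phosphorylation genes rose and none fell (4.33% of all genes rose and 2.74% fell), led by Atp5k (0.76 ± 0.0914, adjusted p = 1.48e-06, edgeR) and Cox7c (0.44). There 4 of 75 ribosome genes rose, such as Mrpl52 (0.44) and Mrpl36 (0.73), and 2 fell (Mrpl15 and Mrps15), Smcp rose by 0.27, Phb, a scaffold protein of the inner membrane, by 0.50, and Fastk fell by 0.30. Against VC-R edgeR called no gene at all (1844 had an unadjusted p under 0.05), and without R 3 or without UC 2 the list genes called were 7 and 11 in place of 20.

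The nuclear genes most like the summed mitochondrial transcripts over the 90 sums of library and class were Akr1a1, an aldehyde reductase (Pearson r = 0.948 on log2 CPM), Psma7, a proteasome subunit (0.946), Sec62, of the protein import channel of the endoplasmic reticulum (0.945), Chchd2, a protein of the intermembrane space (0.944), and Pomp, a proteasome assembly factor (0.938). They were the first 5 of 3986 genes with a mean of at least 50 CPM. The 90 sums share libraries and classes, so the r is a description. Akr1a1 stood at a median of 116 CPM in spermatogonia-like, 57.8 in spermatocyte-like, 3.99 in spermatid-like and 1.46 in spermatozoa-like cells.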

How the data were processed

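Testes of 15 mice were measured by 3′ single-cell RNA-seq. Per the labels and the study's methods, Cell Ranger (3.0.0 per the labels, 7.0.0 per the file headers) with the STAR aligner and mm10 produced the UMI tables, and the deposited values are raw counts per gene and barcode, before the authors' removal of free RNA and doublets. Whether intronic reads were counted is not given in the sources used here, and all libraries shared a sequencing lane.

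A barcode needed 500 genes and 1000 UMIs to enter, was dropped at 30% mitochondrial UMIs or more (45 cells, 31 of them in R), and the 5.4% with the highest Scrublet score per library were removed as doublets. Cells were clustered in scanpy 1.11.5 (2000 variable genes without mitochondrial and listed genes, 30 components, 20 neighbours, Leiden resolution 1.2) and clusters were named from fixed markers. UMIs were summed per library and class (at least 10 cells). Sums were tested with edgeR 4.0.16 (filterByExpr, TMM, quasi-likelihood test, Benjamini-Hochberg adjustment over all genes, adjusted p under 0.05), and DESeq2 1.42.0 in R 4.3.3 was an alternative. The test was checked on simulated counts. The precision of shares was taken from the spread between 3 mice per group. Alternatives were other filters on cells and genes, weights, control groups, a replicate block and each library left out.

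Named nuclear genes were, per list and comparison, at most 2 called genes per direction with the smallest adjusted p, and the 5 genes most like the summed transcripts. Gene positions and sequences came from GENCODE vM21 (GRCm38), a reference strain other than DBA/2J. The 10 genes and the lists were chosen with earlier results of these data known. A gene of the lists is counted in their totals but not reported here. Free RNA was not subtracted, and no batch could be compared.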

Additional observations from a re-analysis of the deposited data

Results flagged for a closer look

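Effects of opposite sign in 2 germ cell stages, with every library of R above or below every UC library in each, were found for 2 nuclear genes, and the difference between stages was not tested. Fastkd2, of mitochondrial RNA processing, differed from UC by 0.07 in spermatocyte-like and by -0.45 in spermatid-like cells on the log2 scale. Tfam differed by 0.06 in spermatid-like and -0.18 in spermatozoa-like cells. Separation of R from UC was common: 12.1% of 13914 genes were higher without overlap in spermatocyte-like cells and 40.6% of 16066 in spermatid-like cells. The shares of genes lower without overlap are not given for these stages. With equal cells per cluster Fastkd2 was at -0.13 in spermatid-like cells and was not called. No group held 4 or more libraries, so single libraries were not screened as outliers.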

How the results depend on the processing

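Differences in summed share (percentage points) kept their direction and lay within 1 SD of the reported value under 9 of 14 alternatives for T minus UC in spermatocyte-like, 10 of 15 in spermatid-like, and for R minus UC 10 of 13 in spermatocyte-like, 10 of 14 in spermatid-like and 10 of 13 in spermatozoa-like cells. For T minus UC the exceptions in spermatocyte-like cells were 0.1323 with the mean of single cells, -0.1591 with equal depth bins, 0.1742 with equal clusters, 0.1409 against VC-T and 0.1567 against VC-T 2 and VC-T 3. In spermatid-like cells these were 0.08651, 0.06051, 0.0639, 0.07135 and 0.04714. For R minus UC they were -0.07238 (single cells), -0.377 (bins) and 0.01134 (VC-R) in spermatocyte-like cells, 0.2969 (at least 2000 UMIs), 1.181 (single cells), 0.1725 (clusters) and 0.07473 (without low-UMI clusters, chosen after seeing the data) in spermatid-like cells, and 0.05345 (no doublets removed), 0.106 (single cells) and 0.1725 (bins) in spermatozoa-like cells. The spermatocyte-like minus spermatozoa-like difference in UC was 1.28 with single cells. Leaving out each library gave 0.2195 to 0.311 and 0.1601 to 0.2199 for T, 0.07459 to 0.1661, 0.4524 to 0.6228 and 0.02806 to 0.04905 for R, in stage order, and 1.029 to 1.118 for UC. The causes were not tested.

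Genes called, and in brackets those of the nuclear lists, were for T in spermatocyte-like cells 257 (8), with DESeq2 937 (43), with equal cells per cluster 1040 (39), against VC-T 2 and VC-T 3 2190 (75), with an absolute log2 fold change over 1, a rule added after seeing the data, 87 (0), and with a library left out 0 to 932 (0 to 28). The count was 932 without UC 1 and at most 7 without any other library. In spermatid-like cells they were 5646 (80), with equal cells 1759 (35), with the fold rule 1716 (13) and with a library left out 4620 to 5639 (54 to 73). For R in spermatocyte-like cells they were 1 (0), with DESeq2 238 (28), with equal cells 106 (7), against VC-R 0, with the fold rule 0 and with a library left out 0 to 10 (0 to 1). In spermatid-like cells they were 6422 (123), with equal cells 379 (8), with the fold rule 1198 (3) and with a library left out 4883 to 6439 (96 to 124). In spermatozoa-like cells they were 890 (20), with DESeq2 13 list genes, with equal cells 6 list genes, against VC-R 0 (0), with the fold rule 104 (1) and with a library left out 368 to 1112 (7 to 26), lowest without R 3 (368) and without UC 2 (499).

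Opposite signs were found in spermatid-like cells of T for mt-Co2 (-0.1205), mt-Co3 (-0.1738), mt-Cytb (-0.0146), mt-Nd1 (-0.3037) and Slirp (-0.0349) against VC-T 2 and VC-T 3, and for Vdac3 (-0.0224) with equal cells. Libraries with the same replicate number had correlated deviations of -0.54 to 0.70, not above 0.1 in every pair of any comparison, so the number was taken as a name. With a replicate block, 447 and 5693 genes were called for T in spermatocyte-like and spermatid-like cells, and 0 for R in spermatocyte-like cells, 6722 in spermatid-like cells and 1147 in spermatozoa-like cells.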
